A study of Rattus norvegicus with 42 samples.

Results

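Elongating RNA polymerase II was examined at the nadir of pulsatile corticosterone (CORT) infusion in rat liver. The libraries compared were the 2 pSer2 Pol2 ChIP-Seq libraries taken at 180 min of pulsatile CORT (NADIR_180) and the 2 vehicle (VEH) libraries, 1 taken at 140 min and 1 at 180 min of pulsatile vehicle infusion, so that 4 of the 42 samples of the series entered this comparison. Members were the coding regions with a value other than 0 in any of the 10 pSer2 Pol2 libraries, which were 38315 of 60999 regions and 16568 of 26426 genes.

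All rats were adrenalectomised male Sprague Dawley rats and therefore had no adrenal corticosterone of their own, in the VEH groups too. Corticosterone was given intravenously as a complex with a cyclodextrin carrier (HBC), either in pulses of 20 min every hour (PULS) or at a constant rate (CONS) with the same hourly dose. PEAK_140 denotes the end of the third pulse at 140 min and NADIR_180 the end of that hour at 180 min, while CONS_140 and CONS_180 were taken at the same times of constant infusion. Each ChIP library pooled liver chromatin of 6 rats, and each group held 2 libraries. Separate RNA-Seq libraries at 180 min comprised 3 of pulsatile CORT and 3 of pulsatile VEH, besides 6 of constant infusion. Ages were not given in the sources used here.

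Phosphorylation of serine 2 in the carboxy-terminal repeats of Pol2 marks polymerase that has left the promoter and is elongating through a gene, so that ChIP of this form follows ongoing transcription more closely than mRNA does. Glucocorticoids act through the glucocorticoid receptor (GR), which binds DNA when hormone is bound and leaves it when hormone is cleared. In liver they are known for inducing enzymes of amino acid breakdown and gluconeogenesis. Sterol synthesis is under separate feedback in which Insig proteins hold the SREBP activators in the endoplasmic reticulum, and Insig1 is itself an SREBP target gene.

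Depth was 4938473 to 9326927 tags per pSer2 Pol2 library and 3956379 to 7777219 reads per RNA library. Both NADIR_180 libraries (5952158 and 6704747 tags) lay within the range of the VEH libraries (7953030 and 5904816 tags). Values are log2 tag densities as deposited by the authors, adjusted to library size and drawn towards the mean of the region where tags are few. Of 13 hepatocyte marker genes measured, Alb stood at 12.64 in VEH and 12.6 at NADIR_180 (log2 means, n = 2 libraries each). Ttr stood at 11.49 in VEH and 10.87 at NADIR_180. In both NADIR_180 libraries, 2 markers stood above both VEH libraries and 3 below. Of all gene regions 8.24% and 11.4% did so, and 22.1% and 23% of those with a mean over 7. At an unadjusted p below 0.05 and over 1.5-fold (limma) 1 marker was lower, beside 0.541% of all gene regions. The summed log2 level of the list was 125.5 and 121.2 in the VEH libraries and 122.7 and 123.9 at NADIR_180. The summed level of 11 Kupffer cell markers was 32.7 and 28.7 in VEH and 31.1 and 30.6 at NADIR_180, that of 9 endothelial markers 27 and 23.3 against 25.9 and 24.7, and that of 6 stellate cell markers 11.1 and 10.0 against 9.8 and 10.0. Both NADIR_180 libraries lay below both VEH libraries in 3 stellate cell markers and above in 0, beside 11.4% and 8.24% of all gene regions. For Kupffer cell markers these counts were 0 and 2, and for endothelial markers 1 and 0. Cholangiocyte (5 genes) and lymphocyte (4 genes) lists summed to 0.3 and -0.1 against 0.6 and 1.0, and to -7.3 and -7.5 against -7.2 and -7.6, with Hbb, Nkg7 and Gzmb below 0. In these bulk samples fewer cells of a type and less transcription per cell cannot be told apart. Both NADIR_180 libraries and PEAK_140 replicate 1 belong to one run of library numbers in the labels, whereas VEH, PEAK_140 replicate 2 and all CONS libraries belong to a run of higher numbers. The labels do not call this a batch, and it cannot be told apart from the difference between NADIR_180 and VEH. Over the 38315 regions, the difference between the PEAK_140 replicates (replicate 1 minus replicate 2) had a Pearson r of 0.236 with the difference NADIR_180 minus VEH, across regions that share libraries and are not independent.

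The upstream sequences of Insig1, the only gene called below, and of the 3 sterol synthesis genes with the lowest p at NADIR_180 that have a single entry are shown because these genes carry the lower pSer2 Pol2 values described next. They are the 250 bases before the annotated start (RefSeq, build GRCr8), and capitals mark each E-box CACGTG and each CCAAT box (or ATTGG on the other strand).
Insig1: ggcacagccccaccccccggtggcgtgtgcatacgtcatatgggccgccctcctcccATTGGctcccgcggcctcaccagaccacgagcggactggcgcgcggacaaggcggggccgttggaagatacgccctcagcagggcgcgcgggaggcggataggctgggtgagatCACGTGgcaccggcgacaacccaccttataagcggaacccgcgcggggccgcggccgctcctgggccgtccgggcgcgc
Hmgcs1: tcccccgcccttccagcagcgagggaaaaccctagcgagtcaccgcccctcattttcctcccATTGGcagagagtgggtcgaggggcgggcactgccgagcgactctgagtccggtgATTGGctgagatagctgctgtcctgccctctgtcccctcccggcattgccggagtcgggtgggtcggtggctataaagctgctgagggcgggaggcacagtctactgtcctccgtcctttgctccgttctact
Idi1: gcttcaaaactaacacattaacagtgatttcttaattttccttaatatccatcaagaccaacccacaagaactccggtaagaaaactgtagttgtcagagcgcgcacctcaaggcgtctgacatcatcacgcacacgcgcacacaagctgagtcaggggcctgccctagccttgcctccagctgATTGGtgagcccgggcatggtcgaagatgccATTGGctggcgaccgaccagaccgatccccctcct
Fdps: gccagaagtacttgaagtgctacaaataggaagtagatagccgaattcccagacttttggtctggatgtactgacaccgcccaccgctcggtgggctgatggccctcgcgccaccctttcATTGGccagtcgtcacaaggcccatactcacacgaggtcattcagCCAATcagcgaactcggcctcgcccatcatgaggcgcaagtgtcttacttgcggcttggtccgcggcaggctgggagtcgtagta
These windows lie at chr4:8057770-8058019 (minus strand), chr2:53382054-53382303 (plus), chr17:66547525-66547774 (minus) and chr2:176804817-176805066 (minus) of GRCr8, which is another build than the rn6 coordinates of the ChIP regions. In the Insig1 window the E-box begins 79 bases before the start (position -79) and the CCAAT box at -193. Searched on both strands, CACGTG was in 5.59% of all 33469 promoter windows and CCAAT in 34%. Of the 15 sterol synthesis genes with a window, 12 held CCAAT and 1 (Sc5d) held CACGTG. Neither TCACNCCAC, the core of the sterol regulatory element (0.974% of windows), nor the palindromic glucocorticoid response element (0.373%) was found in those 15 windows or in that of Insig1, which says only that these letters are not in these windows.

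In the fit of all 10 pSer2 Pol2 libraries, Insig1 was the only gene called different from VEH at NADIR_180, and it was lower. The value was 10.22 and 10.01 in the VEH libraries, 10.62 and 10.84 at PEAK_140, and 7.61 and 7.49 at NADIR_180. Both NADIR_180 libraries were thus below every other library, while PEAK_140 was above both VEH libraries and the constant infusion stayed high, at 10.95 and 10.64 (CONS_140) and 10.51 and 10.22 (CONS_180). The log2 difference NADIR_180 minus VEH was -2.57 ± 0.27 (SE, n = 2 against 2), a 5.92-fold lower level (limma, adjusted p = 0.022, and 0.031 with the replicate number as a block). Against PEAK_140 it was -3.18 ± 0.27, or 9.07-fold lower (limma, adjusted p = 0.0025). PEAK_140 replicate 1, from the run of library numbers that holds both NADIR_180 libraries, and replicate 2, from the other run, were 10.62 and 10.84. The region spans the whole gene (chr4:342302-350515, plus strand, rn6), and the gene and transcript entries are the same region.

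The call rule was an adjusted p below 0.05 together with a difference over 1.5-fold, and 1 of 16568 genes met it (0.00604%), with 0 genes raised (limma). At an unadjusted p below 0.05 and the same fold, 87 gene regions were higher (0.535%) and 88 lower (0.541%) of 16262, and no other region had an adjusted p below 0.41. With 2 libraries a group, a gene that was not called is not thereby shown to be unchanged. The paper, which used DESeq2 with these thresholds, reported more genes changed from VEH at the nadir, most of them lower. The call of Insig1 was lost without either VEH library (adjusted p = 0.26 without the 140 min library and 0.11 without the 180 min library) and without NADIR_180 replicate 1 (0.24), but not without replicate 2 (0.026), with log2 differences between -2.67 and -2.46. It was also lost in a fit of the 4 libraries alone (0.49). With centred libraries 6 genes were called, all lower, and among regions above the median level 9, of which 7 lower. Without NADIR_180 replicate 2, 64 genes were called, 63 of them higher, and 0 genes without any of the other 3 libraries.

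Genes below that are named for NADIR_180 against VEH other than Insig1 did not pass the test, and their values are given as measured. The 10 with the lowest p in the lower direction (limma, unadjusted p = 1.2e-06 to 0.0008) include Hmgcs1, the cytosolic HMG-CoA synthase of sterol synthesis, at 9.92 and 9.77 in VEH and 7.24 and 7.10 at NADIR_180. PEAK_140 was lower still for Hmgcs1, at 4.94 and 6.52. Scd, a stearoyl-CoA desaturase, was at 6.10 and 5.82 in VEH and at 2.88 and 2.84 at NADIR_180, beside 2.90 and 2.86 at PEAK_140, at the low end where values are drawn together. Under constant infusion Scd was at 5.01 and 2.76 at 140 min and at 6.45 and 6.30 at 180 min. Igf1, the insulin-like growth factor secreted by liver, was at 10.63 and 10.42 in VEH, 9.94 and 10.28 at PEAK_140 and 8.99 and 8.23 at NADIR_180, and it was also low at CONS_140, at 8.39 and 8.08. Sgk1, a kinase known as a glucocorticoid target, was at 9.22 and 9.12 in VEH and 7.38 and 7.77 at NADIR_180. A pair of neighbouring serpin genes on chromosome 6 showed a swing, with LOC299282 at 11.75 and 11.72 in VEH, 12.61 and 12.26 at PEAK_140 and 10.48 and 9.91 at NADIR_180. Serpina3c was likewise at 11.99 and 12.03, then 12.74 and 12.52, then 11.01 and 10.37. These serpins belong to a family of similar copies whose tags may be shared, and of the other 5 regions of LOC299282, 4 were between -1.54 and -1.41 and 1 was at 0.17. Sult1e1 (a sulfotransferase), Cyp4a1 (a fatty acid hydroxylase) and AABR07044001.3 complete the 10, with log2 differences of -1.22, -1.72 and -2.65.

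**Figure D1:**
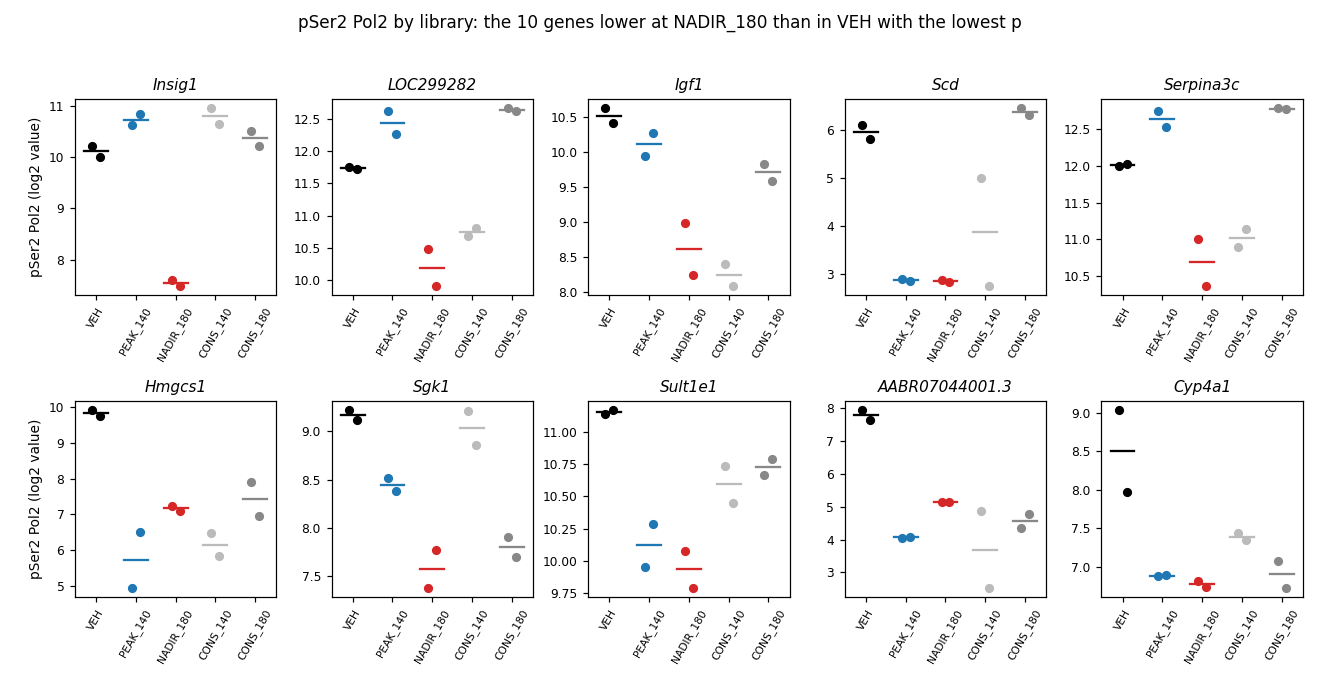
Deposited log2 pSer2 Pol2 value (y axis, own scale per gene) in each library of VEH, PEAK_140, NADIR_180, CONS_140 and CONS_180 (x axis); points are libraries and bars are means of 2. In all 10 genes both NADIR_180 libraries lie below both VEH libraries, and Insig1 alone passed the test.

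In the higher direction the 10 genes with the lowest p had log2 differences of 1.15 to 3.35 and adjusted p of 0.41 or more (limma). Cyp1a2, a drug-metabolising cytochrome P450, was at 6.35 and 5.18 in VEH and at 7.96 and 8.24 at NADIR_180, slightly above PEAK_140 (7.27 and 7.89). Kng1, the kininogen precursor, was at 9.70 and 9.41 in VEH, 10.83 and 11.68 at PEAK_140 and 11.05 and 11.11 at NADIR_180. Both genes were therefore no lower at the nadir than at one of the peak libraries. Il1r1, the interleukin 1 receptor, was at 7.33 and 6.23 in VEH and 8.76 and 8.88 at NADIR_180, and Orm1, an acute phase protein, at 6.34 and 5.65 against 7.89 and 8.46. In both the nadir lay well above VEH. Etnppl, a phospholyase, was between VEH and the peak at the nadir, at 4.71 and 2.97 in VEH, 8.99 and 9.37 at PEAK_140 and 6.56 and 6.03 at NADIR_180. Usp2, a clock-controlled deubiquitinase, was at 4.45 and 2.97 against 6.55 and 5.58 in a transcript region, whereas its gene-level region had a difference of 0.00. Setmar, Rgs16 and As3mt had log2 differences of 1.65, 3.35 and 1.23.

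**Figure D2:**
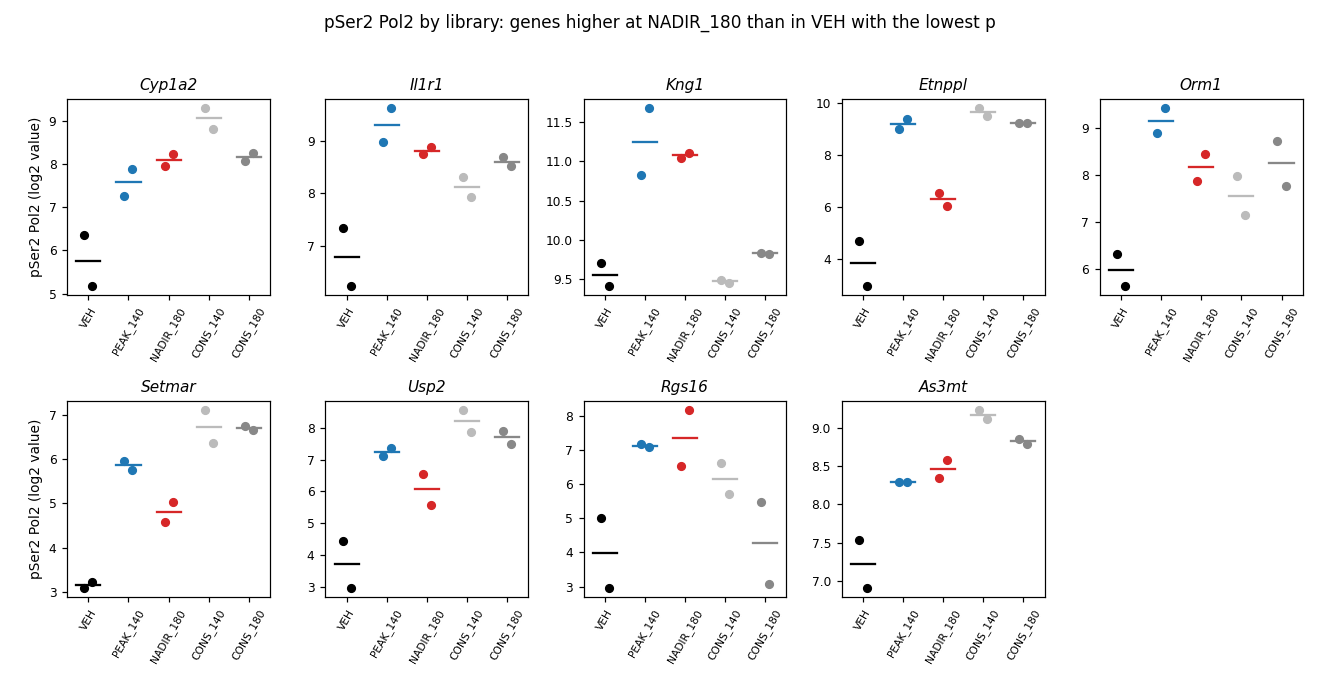
Deposited log2 pSer2 Pol2 value (y axis, own scale per gene) in each library of the 5 groups (x axis); points are libraries and bars are means of 2. In all 9 genes drawn, of the 10 chosen, both NADIR_180 libraries lie above both VEH libraries, and none passed the test.

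For reading these values, both NADIR_180 libraries lay outside the VEH range in 19.6% of all 16262 gene regions, 8.24% above and 11.4% below it. Among the 906 gene regions with a mean value over 7 the share was 45%, of which 22.1% above and 23% below.

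What separated the nadir from the peak was tested directly. The samples are also 40 min apart, and with 1 VEH library at each time a change with time alone was not tested. PEAK_140 replicate 2 is from another run of library numbers than both NADIR_180 libraries. The replicate block used below does not follow these runs, and their part in the difference was not tested. NADIR_180 differed from PEAK_140 at 84 of 16568 genes (0.507%; limma), of which 43 (0.26%) had fallen and 41 (0.247%) had risen at the nadir. With the replicate number as a block the count was 117, with centred libraries 210 and with quantile normalization 231, and in a fit of the 4 libraries alone it was 0 (limma, 5134 regions at an unadjusted p below 0.05). The count depended on single libraries, with 1 gene without PEAK_140 replicate 1, 1 without NADIR_180 replicate 1, 44 without PEAK_140 replicate 2, 51 and 50 without the VEH library of 140 and of 180 min, and 100 without NADIR_180 replicate 2. Each of the 84 genes was then placed by where its NADIR_180 libraries stood against VEH. It was taken as remaining changed when both lay outside the VEH range on the side of the PEAK_140 mean, as rebound when both lay outside it on the other side, and as returned otherwise. By this rule 28 genes remained changed, 33 had returned and 23 had rebounded. Without the VEH library of 140 min these groups held 27, 8 and 16 genes, without that of 180 min 16, 7 and 27, and without PEAK_140 replicate 2 15, 14 and 15. Without PEAK_140 replicate 1 or NADIR_180 replicate 1 no group held more than 1 gene, and without NADIR_180 replicate 2 they held 78, 5 and 17. Where 1 VEH library was left the VEH range was a single value, and where 1 NADIR_180 library was left only that library had to lie outside. Fewer genes can then count as returned by the rule itself, so the groups of these fits are not placed like those of the main fit. The same NADIR_180 libraries entered the call and the placing, so that all these counts are a description and not a test against VEH. In all, 51 of the 84 genes (60.7%) lay outside the VEH range, and 36 of the 58 with a mean value over 7 (62.1%), beside 45% of all gene regions at that level.

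The rebound group was mostly made of genes that had stood above VEH at the peak, 19 of 23. Besides Insig1 it held Got1, the cytosolic aspartate aminotransferase, at 9.0 and 8.75 in VEH, 10.92 and 10.48 at PEAK_140 and 7.92 and 7.27 at NADIR_180. Got1 fell by 3.11 on the log2 scale from the peak (limma, adjusted p = 0.003), and stood at -1.28 against VEH (adjusted p = 0.98). Tat, the tyrosine aminotransferase that is a classical glucocorticoid target, was at 12.12 in both VEH libraries, at 12.80 and 12.56 at PEAK_140 and at 11.37 and 11.44 at NADIR_180. Tsku, a secreted liver protein, was at 8.81 and 8.56, then 10.83 and 10.51, then 7.89 and 7.21. Alas1, the first enzyme of haem synthesis, was at 9.57 and 9.36, then 10.57 and 10.28, then 8.54 and 8.63. In all of these the peak lay above and the nadir below VEH with no overlap between libraries. Urea cycle genes Ass1 and Cps1, Pik3r1 of insulin signalling, and Hacl1, Adk, Wasl, Slc25a25, Ugt2a3, Rhbdd2 and AABR07048475.1 followed the same order, with the 2 serpins. Of the 23, 12 were more than 1.5-fold from VEH at the nadir. In Ugt2a3, Rhbdd2 and Wasl 1 nadir library only just passed the lower VEH library (2.79 against 2.79 for Ugt2a3), and the first 2 lie at the low end where values are drawn together. Other regions of Ugt2a3 differed from the peak by up to 0.11. The opposite order, low at the peak and above VEH at the nadir, was seen in 4 genes, among them Klf12, a zinc-finger factor, at 6.71 and 6.34 in VEH, 3.27 and 3.20 at PEAK_140 and 6.92 and 7.08 at NADIR_180. Hal, the histidine ammonia-lyase, was at 8.67 and 8.42, then 6.13 and 6.26, then 8.87 and 8.85. The nadir was 0.47 above VEH on the log2 scale for Klf12 and 0.31 for Hal, both under 1.5-fold. The other region of Klf12 differed from VEH by -0.52 and from the peak by -0.23.

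The genes that remained changed were 8 above VEH and 20 below it. Among the 8, Etnppl (values above) fell by 2.88 on the log2 scale from the peak (limma, adjusted p = 0.029) and was the furthest from VEH, at 2.46. Zfp354a, a zinc-finger factor, was at 6.06 and 5.13 in VEH, 9.41 and 9.60 at PEAK_140 and 7.16 and 6.73 at NADIR_180. Tsc22d3, which encodes the glucocorticoid-induced leucine zipper, was at 5.64 and 5.71, then 9.18 and 8.99, then 6.04 and 6.12. Tsc22d3 was thus close to VEH again, with 0.41 left on the log2 scale after a fall by 3.00 from the peak (limma, adjusted p = 0.003). Tdo2, the tryptophan dioxygenase of amino acid breakdown, was at 9.73 and 9.81, then 11.90 and 12.15, then 10.41 and 10.48. Pfkfb1, Edem1, Mfsd2a and Slc38a2 had 0.86, 0.63, 0.47 and 0.44 left against VEH on the log2 scale. Of the 20 below VEH, Car3, a carbonic anhydrase, was at 10.79 and 10.85 in VEH, 5.58 and 7.03 at PEAK_140 and 9.66 and 9.34 at NADIR_180. Cxcl12, a chemokine, was at 9.0 and 8.55, then 4.41 and 4.01, then 7.72 and 7.50. Ces1f, a carboxylesterase, was at 7.40 and 7.20, then 3.23 and 3.16, then 6.13 and 6.11. These 3 genes lay between peak and VEH at the nadir, still 2.5-fold, 2.24-fold and 2.26-fold below VEH in this order. LOC297568 and Gk, the glycerol kinase, were at -1.41 and -0.93 against VEH. Slc19a2, a thiamine transporter, had the greatest rise from the peak, by 3.94 on the log2 scale (limma, adjusted p = 0.018), to 7.99 and 8.19 against 8.79 and 8.52 in VEH. Other regions of Slc19a2 had smaller differences, down to 1.11, and regions of Ces1f ranged from -0.73 to 2.93. For Ust5r the rise was 3.62. Ust5r and Cyp2c6v1 were at -0.61 and -0.74 against VEH, and Slc19a2, Sc5d, Cat, Acsl1, Arrdc3, Cyp2a1 and the other 7 of the 20 were less than 1.5-fold below it.

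The returned group held the greatest fall of all. Zbtb16, a zinc-finger repressor, was at 3.96 and 2.84 in VEH, 9.77 and 9.73 at PEAK_140 and 5.21 and 2.89 at NADIR_180, a fall by 5.70 on the log2 scale from the peak (limma, adjusted p = 0.003). Lpin1, the phosphatidate phosphatase lipin, was at 7.53 and 5.85, then 11.24 and 10.95, then 6.57 and 6.22 in a transcript region, whereas its gene-level region differed by 0.02 between nadir and peak. Por, the reductase that serves the cytochrome P450 enzymes, was at 6.44 and 5.62, then 9.37 and 9.34, then 6.33 and 5.65. Sds, the serine dehydratase, was at 7.75 and 7.09, then 11.16 and 10.56, then 7.93 and 7.49. At all 4 genes the nadir overlapped VEH, and NADIR_180 minus VEH lay between -0.30 and 0.65 on the log2 scale. AABR07044148.1 fell by 4.68. Genes that had been low at the peak and overlapped VEH again included Insig2, the second Insig gene, at 9.93 and 9.59 in VEH, 6.69 and 6.75 at PEAK_140 and 9.23 and 9.72 at NADIR_180. Insig2 rose by 2.76 on the log2 scale from the peak (limma, adjusted p = 0.003) where Insig1 fell by 3.18. Angptl8, an insulin-responsive secreted protein, rose by 3.14, Alad, of haem synthesis, by 3.31, the sulfotransferase Sult2a2 by 3.04, LOC100362216 by 3.24 and Slco1b2, a bile acid and drug transporter, by 2.21. With the replicate number as a block the returned group had 56 genes, the remaining group 35 and the rebound group 26.

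**Figure D3:**
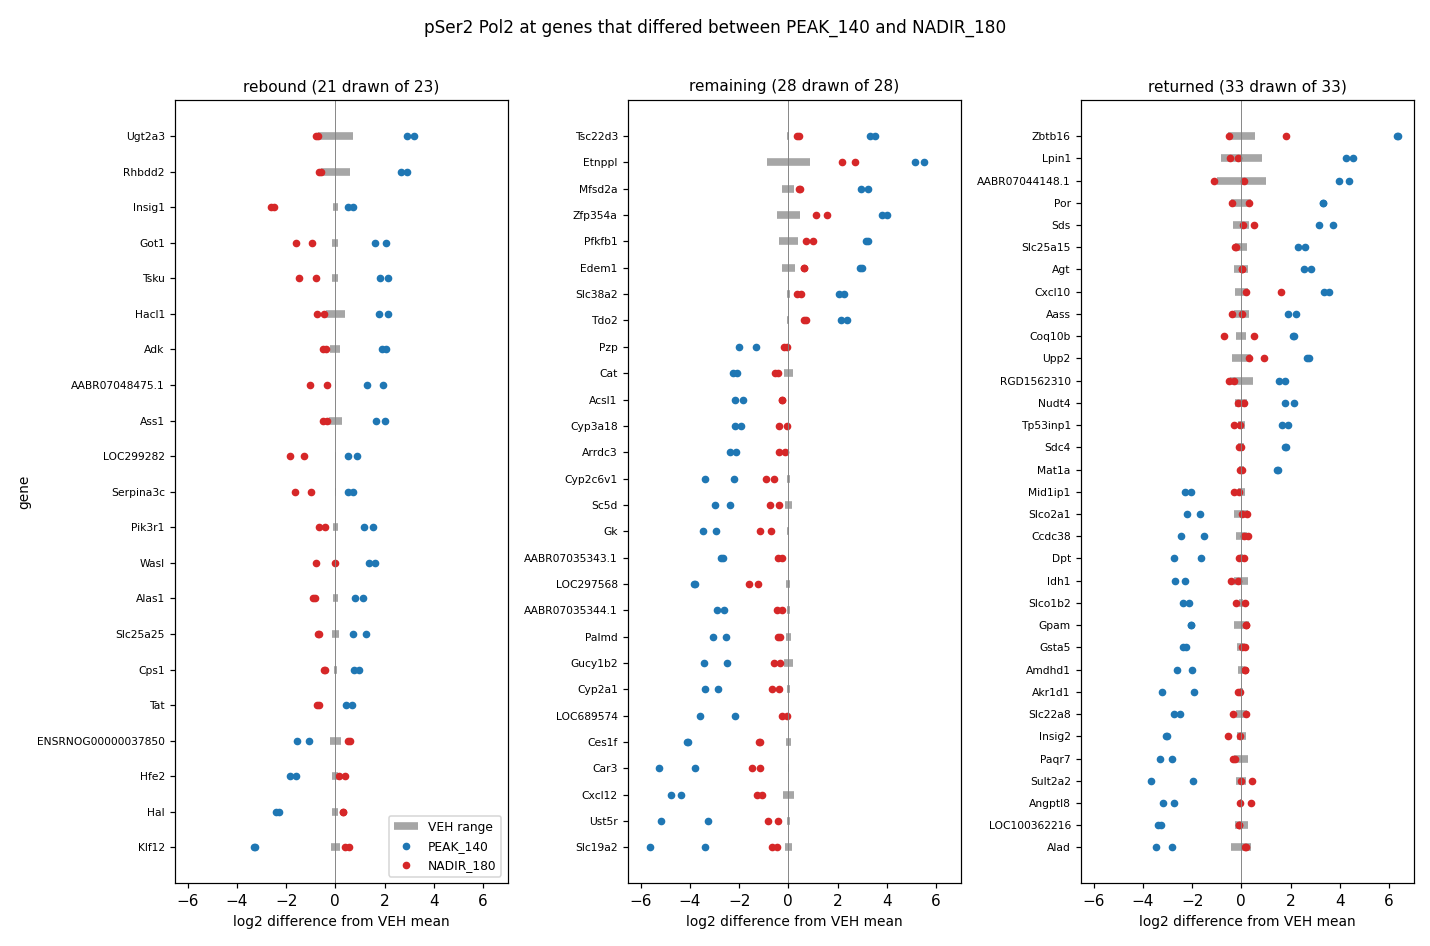
Log2 pSer2 Pol2 value minus the VEH mean (x axis) for 82 of the 84 genes (y axis) that differed between NADIR_180 and PEAK_140, in 3 panels by group; blue and red points are the PEAK_140 and NADIR_180 libraries and the grey bar spans the 2 VEH libraries. Insig1 at the nadir lies furthest below VEH of all genes drawn, and Etnppl furthest above.

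Sterol synthesis enzymes had the lowest median of the 13 gene lists at the nadir. Over all gene regions 8.24% were above VEH in both nadir libraries and 11.4% below, 22.1% and 23% of those with a mean over 7, and 0.535% and 0.541% were higher or lower at an unadjusted p below 0.05 and over 1.5-fold. Of 20 enzymes measured by gene region, both NADIR_180 libraries were below both VEH libraries in 15 and above in 0, and 9 were lower at an unadjusted p below 0.05 and over 1.5-fold, but 0 passed the test (limma). The median log2 difference from VEH was -0.65, beside 0.0075 over all genes tested, and it was -1.19 at PEAK_140. Fdft1, the squalene synthase, was between peak and VEH at the nadir, at 8.34 and 8.14 in VEH, 5.42 and 5.94 at PEAK_140 and 7.38 and 6.80 at NADIR_180. Fdps, Nsdhl and Idi1 had log2 differences from VEH of -1.70, -1.0 and -1.18, and Idi1 was near the low end of its values at both times. By the direct test, 1 enzyme fell and 1, Sc5d, rose from the peak to the nadir, beside 0.26% and 0.247% of all genes. In mRNA, 0 of 19 enzymes tested were raised or lowered at 180 min (edgeR).

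Among fatty acid genes, 8 of 16 measured had both NADIR_180 libraries below VEH and 2 above (all gene regions: 11.4% and 8.24%), with 5 lower (all: 0.541%) at an unadjusted p below 0.05 and over 1.5-fold and a median of -0.27. Fads2, the delta-6 desaturase, was at 9.16 and 8.85 in VEH, 2.38 and 2.01 at PEAK_140 and 5.43 and 4.99 at NADIR_180. Fads1, the delta-5 desaturase, was at 8.40 and 8.08, then 2.26 and 2.17, then 5.15 and 3.68. Both desaturases were still far under VEH at the nadir (-3.79 and -3.83 on the log2 scale; limma, adjusted p = 0.75 and 0.99) and above the peak in both libraries. Fabp1, the liver fatty acid binding protein, and Elovl5, an elongase, were at -1.59 and -1.43. Of 12 genes of cholesterol uptake and efflux, 3 were below VEH in both nadir libraries and 0 above, with a median of -0.02. Among the 3, the sterol carrier Stard4 was at 7.40 and 7.39 in VEH, 6.50 and 6.71 at PEAK_140 and 6.61 and 6.40 at NADIR_180. The 13 genes of sterol sensing and SREBP control had a median of 0.00, with 2 below VEH, Insig1 included, and 1 above. Beside the counts of these lists and of the fatty acid genes, 11.4% of all gene regions were below and 8.24% above. Of gene regions with a mean over 7 these shares were 23% and 22.1%.

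Established glucocorticoid targets lay on both sides of VEH at the nadir. Of 28 measured, 10 had both NADIR_180 libraries above VEH and 8 below. Of all gene regions with a mean over 7, 22.1% and 23% did so. At an unadjusted p below 0.05 and over 1.5-fold 4 targets were higher and 5 lower, beside 0.535% and 0.541% of all gene regions. The median of the targets was 0.29 at the nadir against 1.18 at PEAK_140. None of the targets passed the test against VEH (limma), and 8 fell from the peak to the nadir, beside 0.26% of all genes. Per1, a clock gene with a known glucocorticoid response, was at 4.79 and 3.03 in VEH, 7.17 and 6.76 at PEAK_140 and 6.38 and 5.52 at NADIR_180. Pdk4, a pyruvate dehydrogenase kinase, was on the other side, at 11.11 and 11.04, then 8.58 and 9.52, then 9.87 and 9.89. In mRNA 15 of the 25 targets tested were raised and 0 lowered, beside 1.79% and 2.44% of all genes. For gluconeogenesis and amino acid breakdown, 9 of 28 genes were above VEH in both libraries and 9 below. Of all gene regions with a mean over 7, 22.1% and 23% did so. The median of the list was 0.01 at the nadir and 0.46 at the peak. From the peak 8 of its genes fell and 1 rose, beside 0.26% and 0.247% of all genes. Cbs, of the transsulfuration pathway, was at 1.06 against VEH. Cps1 was at 0.67 in a short transcript region and at -0.43 in its gene-level region, and it was the gene-level value that put it among the rebound genes.

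Inflammation and acute phase genes had a median of 0.34 at the nadir over 24 genes, with 9 above VEH in both libraries and 4 below. Of all gene regions 8.24% and 11.4% lay above and below, and of those with a mean over 7, 22.1% and 23%. At an unadjusted p below 0.05 and over 1.5-fold 5 genes of the list were higher (all: 0.535%), and 0 passed the test (limma). Lcn2, an acute phase lipocalin, was at 2.73 and 2.35 in VEH, 6.45 and 6.36 at PEAK_140 and 2.89 and 6.31 at NADIR_180, so that the nadir libraries disagreed. Cxcl1, a neutrophil chemokine, was at 8.13 and 8.25 in VEH and at 9.12 and 9.17 at NADIR_180, and Socs3, a cytokine signalling inhibitor, was 0.74 above VEH on the log2 scale. Immediate early genes Zfp36, Fosl2 and Junb were at 0.85, 1.09 and 0.95, with a median of 0.08 over 24 genes. Of the 24, 3 were higher at an unadjusted p below 0.05 and over 1.5-fold (limma, beside 0.535% of all gene regions). Nr1d1, the clock repressor REV-ERB alpha, was at 7.97 and 7.88 in VEH, 7.97 and 7.49 at PEAK_140 and 9.37 and 8.85 at NADIR_180, above both. The 19 clock genes had a median of 0.19, with 3 above and 2 below VEH. Beside these stand 8.24% and 11.4% of all gene regions, and 22.1% and 23% of those with a mean over 7. Bile acid genes Slc27a5 and Abcb11 were at 1.30 and -0.76. Over 19 insulin signalling genes, 14 genes of the receptor and its chaperones and 17 of the Pol2 machinery, the medians were 0.08, 0.17 and 0.14. Supt5h, an elongation factor, was at 6.02 and 3.79 in VEH, libraries that disagreed, and at 6.6 and 6.52 at NADIR_180. Its difference from VEH was 1.66 in that region and ran from 0.49 to 1.66 over its regions.

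**Figure D4:**
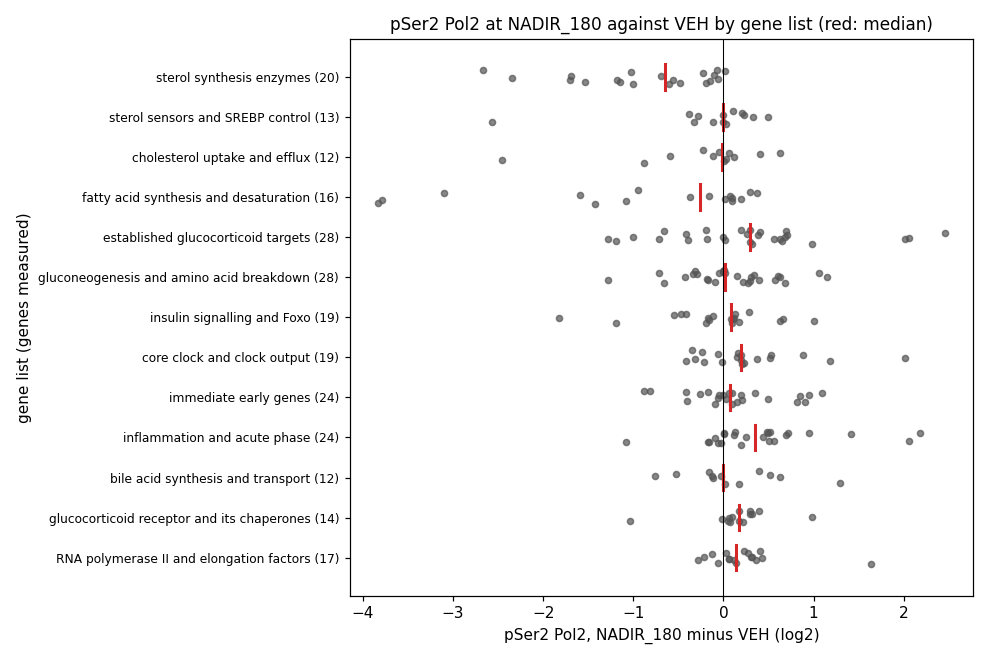
Log2 difference NADIR_180 minus VEH in pSer2 Pol2 (x axis) of each measured gene (points, gene regions) in 13 gene lists (y axis, number measured in brackets); red bars are medians. Sterol synthesis enzymes have the lowest median of these lists, at -0.65, and inflammation and acute phase genes the highest, at 0.34.

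The mRNA of the same time point gave gene sets that were chosen without any ChIP library. Pulsatile CORT changed 596 of 14092 genes in mRNA at 180 min (4.23%), 252 raised and 344 lowered (1.79% and 2.44%; edgeR quasi-likelihood test with Benjamini-Hochberg adjustment, 3 libraries against 3). The count was 354 without pulsatile CORT replicate 1, 336 without replicate 2 and 400 to 483 without any other of the 6 libraries. Of the raised genes 234 had a gene region in pSer2 Pol2. Both NADIR_180 libraries were above VEH in 49 of these (20.9%) and below in 32 (13.7%), beside 9.67% and 10.2% of the 10834 other genes. At PEAK_140 the median pSer2 Pol2 difference from VEH was 0.54 for the raised genes, against -0.10 for the other genes, whereas at NADIR_180 it was 0.11 against 0.04. For the 256 lowered genes, 49 (19.1%) were below VEH in both nadir libraries and 16 (6.25%) above, and the median was -0.23 at PEAK_140 and 0.00 at NADIR_180. Of all gene regions with a mean over 7, 22.1% lay above and 23% below VEH in both nadir libraries. The other genes were not matched to the raised or lowered genes by pSer2 Pol2 level, and no test was made over genes of a set.

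**Figure D5:**
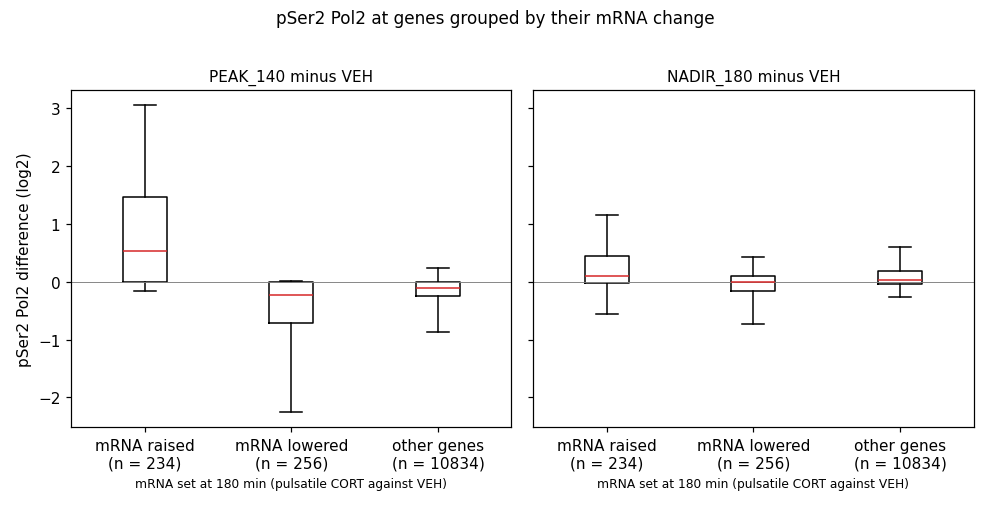
Log2 pSer2 Pol2 difference from VEH (y axis) at PEAK_140 (left) and NADIR_180 (right) for genes raised, lowered or not changed in mRNA at 180 min (x axis); boxes span the quartiles, red lines are medians and whiskers reach the 5th and 95th percentiles. The median of the raised genes is 0.54 at the peak and 0.11 at the nadir.

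At single genes the mRNA and the nadir occupancy were often apart. Insig1 mRNA was 237, 280 and 184 CPM (reads scaled to library size) under pulsatile CORT and 100.0, 47.2 and 212 CPM in pulsatile VEH, ranges that overlap (log2 difference 0.97; edgeR, adjusted p = 0.21), while its pSer2 Pol2 was lower. Etnppl mRNA was 255, 212 and 226 CPM against 44.7, 34.4 and 30.5 CPM (log2 2.66; edgeR, adjusted p = 3.5e-07). Usp2 mRNA was 32.5, 31.7 and 22.9 CPM against 2.72, 0.566 and 3.73 CPM (edgeR, adjusted p = 2e-05), and Per1 mRNA rose too (log2 2.74; adjusted p = 3.3e-05). In Etnppl, Usp2 and Per1 the CORT libraries were all above the VEH libraries, and so was pSer2 Pol2 at the nadir, for Usp2 only in its transcript region. Klf12 mRNA was lower, at 575, 674 and 531 CPM against 1430, 1770 and 1350 CPM (edgeR, adjusted p = 0.01), with pSer2 Pol2 above VEH in the gene-level region and below it in the other. Cxcl1 mRNA was 0.577, 1.48 and 0.746 CPM against 4.35, 35.9 and 34.2 CPM (edgeR, adjusted p = 0.0021), with pSer2 Pol2 above VEH in both nadir libraries. Of the 10 genes in the higher direction at the nadir 3 were raised in mRNA, and of the 8 in the lower direction that were tested 0 were lowered and 1, LOC299282, was raised. Of the 18 rebound genes that had been high at the peak and were tested in mRNA, 12 were raised, as were 8 of 8 that remained high and 14 of 15 that had returned, beside 1.79% of all genes. Of the genes low at the peak, those lowered in mRNA were 6 of 19 that remained low, 2 of 16 that had returned and 1 of 4 rebound genes, beside 2.44% of all genes.

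GR binding was read at the region nearest to each named gene. GR at NADIR_180 was called different from VEH at 310 of 3981 regions (7.79%; limma), 296 higher and 14 lower, beside 80.5% at PEAK_140. The median GR difference from VEH over all regions was 0.84 at the nadir and 4.17 at the peak, where the methods describe scaling to tags within GR regions and the file header names scaling to total tags. At the nadir 0 regions were called once each library was centred on its median (limma, 455 regions at an unadjusted p below 0.05). Among the 70 named genes the nearest GR region was called at the nadir for 9, of which 4 belonged to the 10 genes in the higher direction and 0 to the 10 in the lower. The nearest region lay within 10 kb of the start for 43 of the 70, for 5 of the 10 higher and for 9 of the 10 lower genes. That of Etnppl, among the 4, was centred 18428 bases past the start, so that a nearest region need not lie at the gene. The GR region centred at -160 bases from the start of Kng1 was 4.16 above VEH at the nadir on the log2 scale (limma, adjusted p = 0.0053) and 6.01 at the peak. That at 134 bases past the start of Orm1 was 3.74 above VEH (adjusted p = 0.0048), and that at -1106 bases from the start of Per1 was 2.21 above it (adjusted p = 0.015). These calls, like all GR calls at the nadir, were lost with centred libraries and in a fit of the 4 libraries alone. At -414 bases from the start of Got1 the difference was 0.93 at the nadir (adjusted p = 0.2) and 4.22 at the peak. The GR region centred at -60 bases from the start of Insig1 (chr4:341978-342505, rn6) was at 0.82 and -1.08 in VEH, -0.78 and -0.63 at PEAK_140 and 0.29 and -0.78 at NADIR_180. At Insig1 GR thus overlapped between VEH and the nadir (log2 difference -0.12; limma, adjusted p = 0.95).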

How the data were processed

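The authors trimmed ChIP reads to 50 b (Trimmomatic 0.36), aligned them to rn6, removed duplicates, subtracted input tags and counted pSer2 Pol2 tags with HOMER 4.9.1 in coding regions longer than 320 b and within 10 kb of the start. The deposited ChIP values are log2 values per library although their header speaks of tag counts. They were therefore compared as log2 values and not with a count model. The RNA counts were deposited as whole reads per gene (featureCounts 1.6.2 per the labels).

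All 10 pSer2 Pol2 libraries were fitted together in limma 3.58.1 (R 4.3.3; empirical Bayes, variance trend), with Benjamini-Hochberg adjustment over 38315 regions, and GR values likewise over 3981 regions. RNA counts of genes with more than 10 reads in all were fitted with edgeR 4.0.16 (TMM, quasi-likelihood test, 12 libraries), and CPM are scaled by edgeR. A gene was counted once, by its called region with the greatest change. Regions of one gene overlap. With 2 libraries a group, p-values draw on the spread of all groups.

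Named genes were Insig1 as the called gene, the 10 in each direction with the lowest p against VEH at over 1.5-fold, the 10 in each direction that changed most from PEAK_140, and up to 6 members of each list. Other genes were named as members of a list or group after their values were seen. The members and lists were chosen with earlier results of these data known. Replicate numbers mark independent ChIP experiments, and same-numbered pSer2 Pol2 libraries deviated together in all 6 pairs of groups (r = 0.155 to 0.553), while GR libraries did not (r = -0.0265 to 0.0718). VEH libraries carry no replicate number and were set to 0 in the block term. The fit was tested on simulated data. Some genes are not reported here. The authors' own comparison tables, which hold fold changes and p-values, peak lists and input libraries were not used here. Log2 values give no counting interval per library.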

Additional observations from a re-analysis of the deposited data

Results flagged for a closer look

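Occupancy differed between NADIR_180 and PEAK_140 at 84 genes, by the test of the difference between these times itself (limma). The times are 40 min apart, and with 1 VEH library at each time a change with time alone was not tested. PEAK_140 replicate 2 also came from another run of library numbers than both NADIR_180 libraries. The greatest falls from peak to nadir on the log2 scale were -5.70 for Zbtb16, -4.71 for Lpin1, -4.68 for AABR07044148.1, -3.82 for Ugt2a3, -3.42 for Rhbdd2, -3.37 for Por, -3.18 for Insig1, -3.15 for Sds, -3.11 for Tsku and -3.11 for Got1. The greatest rises were 3.94 for Slc19a2, 3.76 for Klf12, 3.62 for Ust5r, 3.40 for Cxcl12, 3.31 for Alad, 3.24 for LOC100362216, 3.20 for Car3, 3.14 for Angptl8, 3.04 for Sult2a2 and 2.93 for Ces1f. Each value is that of the region of the gene that changed most. Over all measured regions the change ran from -4.71 to 0.02 for Lpin1, from -3.82 to 0.11 for Ugt2a3, from -0.23 to 3.76 for Klf12, from 0.84 to 3.31 for Alad, from 0.19 to 3.04 for Sult2a2, from 1.11 to 3.94 for Slc19a2 and from -0.73 to 2.93 for Ces1f. Groups of 2 and 3 libraries are too small for a check of single samples that stand apart.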

How the results depend on the processing

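For NADIR_180 against VEH the count of 1 gene became 0 in a fit of the 4 libraries alone (limma, 844 regions at an unadjusted p below 0.05) or at an adjusted p below 0.01 (555 regions), 6 with centred libraries and 9 among regions above the median level, and ranged from 0 to 64 when single libraries were left out. For NADIR_180 against PEAK_140, 84 genes became 0 with the 4 libraries alone (limma, 5134 regions at an unadjusted p below 0.05), 210 with centred libraries, 231 with quantile normalization, 36 at an adjusted p below 0.01 and 152 among regions above the median level, and 1 to 100 without single libraries. The remaining, returned and rebound groups held 61, 89 and 60 genes with centred libraries, 75, 73 and 83 with quantile normalization, and 0 to 78, 0 to 14 and 0 to 27 without single libraries. Returned genes numbered 56 with the replicate block, and the alternatives for the 3 groups were chosen after seeing the data. GR calls fell from 310 to 0 in the 4 libraries alone (limma, 466 regions at an unadjusted p below 0.05) and to 0 with centred libraries (455 regions), and were 236 to 758 without single libraries. The mRNA count of 596 became 336 to 483 without single libraries. The median of genes lowered in mRNA turned from 0.00 to -0.0122 with centred libraries and -0.0159 with quantile normalization. No named gene of the 20 against VEH or the 20 against PEAK_140 changed sign under the alternatives run. Against VEH 9 values of 7 genes gained a call and 5 of Insig1 lost it, and against PEAK_140 101 values lost it, 7 of them at an adjusted p below 0.01. The replicate block changed no call of these named genes, and moved the count against PEAK_140 to 117 and the remaining and rebound groups to 35 and 26. Fits without 1 library of a pair assume that the lone library varies like the other groups. Without a VEH or NADIR_180 library the placing into the 3 groups was also looser, so that fewer genes could count as returned. In the fit of 4 libraries fewer samples estimate the spread, and for the other changes the cause was not tested.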
